A study of Mus musculus with 6 samples.

Results

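Carbonic anhydrases are zinc enzymes that convert carbon dioxide and water into bicarbonate and a proton, and back. Cytosolic members such as Car2, Car3 and Car13 act inside the cell, while Car9, Car12 and Car14, which span the membrane, and Car4, which is held by a lipid anchor, face outward and act beside bicarbonate, lactate and proton transporters. The lens has no blood vessels, lives largely on glycolysis and has to move the acid this leaves behind. Carbonic anhydrase genes of the mouse lens were examined here through every probe annotated to Car9, Car14, Car2, Car3, Car4, Car8, Car12 or Car13. Of these 8 genes 7 were among the 16593 named genes with a probe, and they had 10 of the 25697 probes: 3 for Car9, 2 for Car2 and 1 each for Car14, Car3, Car4, Car12 and Car13. No probe used here was annotated to Car8, which was not analysed here. The 8 genes were chosen partly on their values in the homozygous against wild-type comparison of these arrays, so the fit across all probes places each gene within that comparison and is not independent evidence for it.

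Lens RNA came from 18-week-old C57BL/6J mice, 3 homozygous for Fgf9 Y162C and 3 wild type, with 1 mouse per array. Fgf9 Y162C is a change of a single amino acid in fibroblast growth factor 9, a secreted signalling protein. Of the homozygous mice 2 are labelled female and 1 male, and of the wild-type mice 1 female and 2 male. Signals were measured on Illumina BeadChips, on which each probe has a detection p-value on each array that ranks it against negative control beads. A probe counts as above background where that p-value is under 0.05.

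The homozygous arrays were dimmer in mean signal, but not all were in median signal. The median was 91.73, 85.44 and 83.68 on homozygous arrays and 90.66 to 91.71 on wild-type arrays. Mean signal was 161.6 to 165.7 on homozygous arrays and 191 to 200.4 on wild-type arrays, and 7816 to 8396 and 8713 to 9671 probes were above background. No array measured Fgf9 above background (0 of 6), and since the change is a substitution this does not check the genotype labels. Wild type replicate 3 is labelled male, but both Xist probes were above background on it (a detection p of 0 for each) and the Y-linked Eif2s3y was not (a detection p of 0.927). Wild type replicate 2 stood apart in photoreceptor transcripts: over 15 tested markers its summed normalized signal was 14560, against 2531 to 5116 on the homozygous arrays and 2681 and 3510 on the other wild-type arrays. Lens fibre markers were tested for 11 of 14 genes and summed to 156100 to 163100 on homozygous and 152000 to 154400 on wild-type arrays. The tests of the carbonic anhydrase probes of the 8 genes and of Hif1a were also run with each array left out, where the probe could still be tested.

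Car9 was above background in homozygous lenses and not in wild-type lenses. Of the 10 probes, 4 were above background on at least 3 arrays and were tested, 1 each for Car9, Car14, Car2 and Car4, and the Car9 probe passed the test at an adjusted p under 0.05. It entered the test only through the homozygous arrays, 3 of 3 against 0 of 3 wild-type arrays, and Car9 was chosen partly on this comparison, so its pass is given as a description. Over the whole array 35 of 8618 tested probes passed, 0.406%, of which 12 were higher (0.139%) and 23 lower (0.267%) in homozygotes. Car14, Car2 and Car4 did not pass, and Car3, Car12 and Car13 had no probe above background on any array. In whole-lens RNA, a change in the amount of transcript per cell cannot be told apart from a change in the share of cells that make it.

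**Figure D1:**
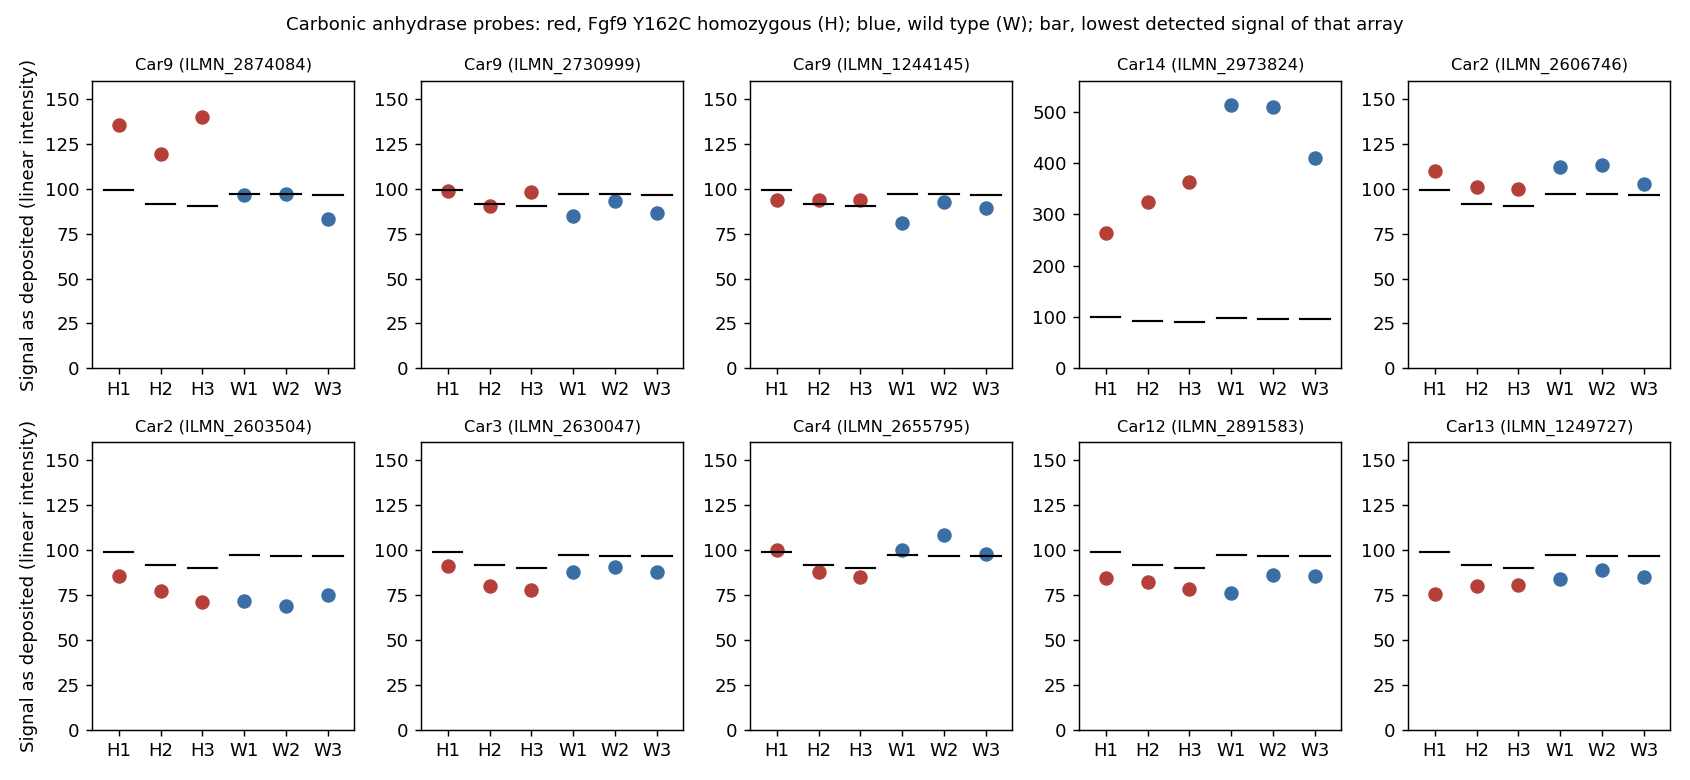
Signal as deposited (linear intensity) of the 10 carbonic anhydrase probes on each array, homozygous mice (H1 to H3, red) left of wild-type mice (W1 to W3, blue). The black bar is the lowest signal above background on that array, and the Car14 panel has a taller axis. The first Car9 probe stands at 119.4 to 139.9 on homozygous arrays, above the bar, and at 82.88 to 96.87 on wild-type arrays, at or below it.

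Car9 is a transmembrane enzyme with an outward-facing catalytic domain and is best known as a gene switched on by hypoxia-inducible factor when oxygen is low. Its probe ILMN_2874084 had signals of 135.4, 119.4 and 139.9 in homozygous lenses, each with a detection p of 0, and of 96.47, 96.87 and 82.88 in wild-type lenses, with detection p-values of 0.0526, 0.0514 and 0.66. The homozygous arrays had lower mean signals, though homozygous replicate 1 did not have a lower median signal. All 3 homozygous values of this probe lay above all 3 wild-type values. Such separation upward in the signal as deposited was seen in 0.22% of tested probes and 0.272% of all probes, and 12 probes on the array (0.0467%) were above background on all homozygous and 0 wild-type arrays. On wild type replicates 1 and 2 this probe missed the background threshold narrowly.

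After background correction and quantile normalization, which gives all arrays the same distribution, the same Car9 probe had log2 values of 6.30, 5.91 and 6.47 in homozygous lenses and 4.76, 4.70 and 4.36 in wild-type lenses. The means were 6.23 ± 0.29 and 4.61 ± 0.22 (SD, n = 3 each). The fitted log2 fold change was 1.62 (SE 0.20, 95% interval 1.17 to 2.07, limma adjusted p = 0.00367). No wild-type array measured Car9 above background. With each wild-type value set at no less than the lowest value above background on its array, the difference was 2.80-fold. This is an estimate under this background correction and not a floor on the change. In the authors' processed intensities the probe stood at 68.44, 48.35 and 79.7 in homozygotes, against 9.798, 8.381 and -2.061 in the wild type.

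The size of the Car9 difference, though not its direction, followed the background correction. The log2 fold change was 0.90 with an offset of 50 in place of 16 and 0.60 with no background correction, and the probe passed in each (limma adjusted p = 0.00559 and 0.00985). Leaving out wild type replicate 2 gave 1.59 (limma adjusted p = 0.00143), and leaving out wild type replicate 3 gave 1.47 (limma adjusted p = 0.0322). With any homozygous array left out the probe was above background on too few arrays to be tested. With the tested probes held fixed, a setting chosen after the data were seen, it passed whichever of the 6 arrays was left out, at log2 fold changes of 1.47 to 1.80 and limma adjusted p-values up to 0.036. The fixed set was drawn from all 6 arrays, including the one left out, so these passes too are given as a description.

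The other Car9 probes were close to background and were not tested. ILMN_2730999 had signals of 98.7, 90.2 and 98.32 in homozygous lenses, with detection p-values of 0.0539, 0.0714 and 0.00752, and of 84.88, 92.92 and 86.7 in wild-type lenses, with detection p-values of 0.55, 0.154 and 0.472. ILMN_1244145 had signals of 93.6, 93.75 and 93.6 in homozygous lenses, with detection p-values of 0.211, 0.0313 and 0.0201, and of 80.73, 92.56 and 89.06 in wild-type lenses, with detection p-values of 0.786, 0.168 and 0.325. Both were thus above background on 1 and 2 homozygous arrays and on 0 wild-type arrays. After normalization the homozygous values lay above the wild-type values for both, as for 6.03% of all probes. With the wild type set at the background limit, the differences were 1.16-fold and 1.08-fold higher in homozygotes under the same background correction. Neither passed where every probe was tested (limma adjusted p = 0.516 and 0.652), so the Car9 result rests on 1 of its 3 probes.

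**Figure D2:**
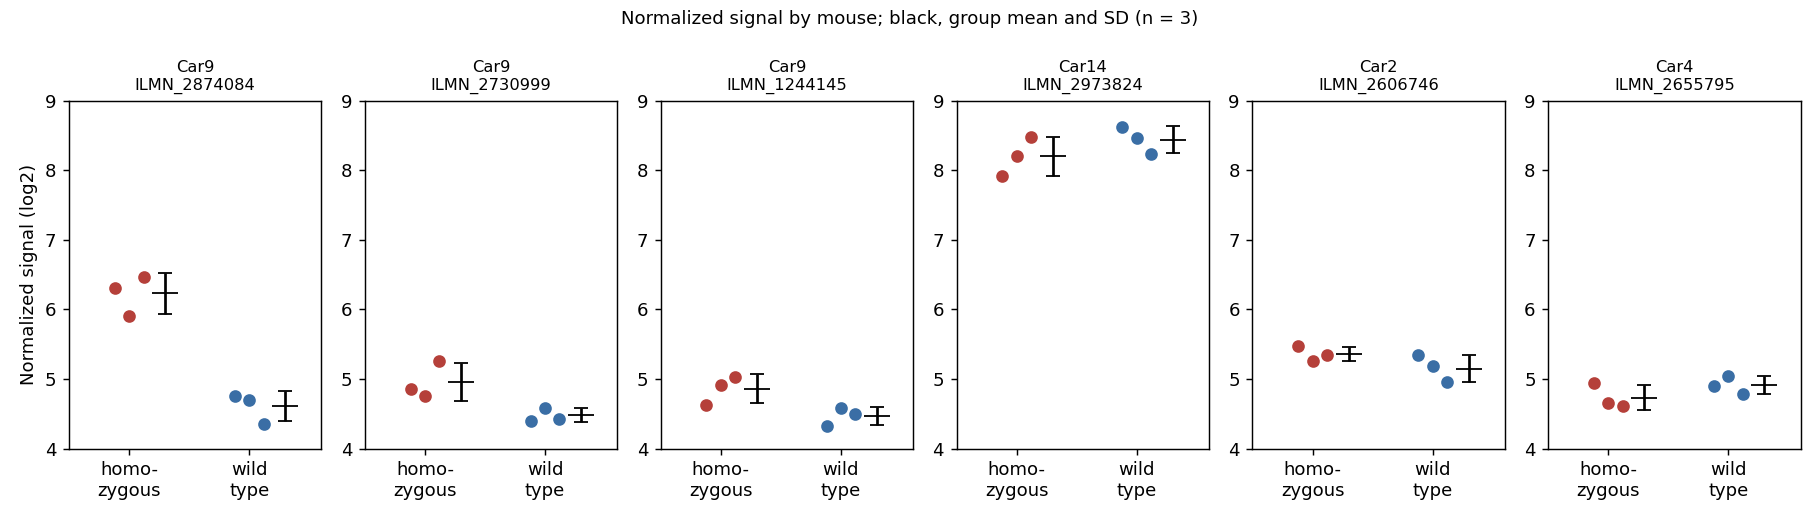
Normalized log2 signal by mouse for the 3 Car9 probes and the tested probes of Car14, Car2 and Car4, homozygous (red) left of wild type (blue), with the group mean and SD in black (n = 3). The groups are apart for the 3 Car9 probes, which were above background on 0 wild-type arrays, and overlap for Car14, Car2 and Car4.

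The promoter of Car9 is shown because hypoxia-inducible factor binds DNA at a core that reads ACGTG, or GCGTG in some genes, and in human CA9 such a core lies just upstream of the start. RefSeq promoters of the build GRCm38.p6, from 250 bases before to 50 after each start, were found for 4 of the 8 genes, Car9, Car14, Car4 and Car12. Both cores were searched on both strands. ACGTG was found 1 time each in Car9, Car14 and Car4, on the opposite strand and so reading CACGT, at bases -18 to -14, -7 to -3 and 3 to 7 relative to the start. Neither core was found in Car12, and GCGTG was found in none of the 4. Of all 32851 promoters of this length, 19.6% hold ACGTG and 32.4% hold GCGTG. Letters that match are not evidence of binding, and of the 3 genes that hold ACGTG only Car9 passed the test. The 250 bases before the start of Car9 (chr4:43506776-43507025, plus strand) and of Car14 (chr3:95904686-95904935, minus strand) are given 5′ to 3′ with the match in capitals.
Car9: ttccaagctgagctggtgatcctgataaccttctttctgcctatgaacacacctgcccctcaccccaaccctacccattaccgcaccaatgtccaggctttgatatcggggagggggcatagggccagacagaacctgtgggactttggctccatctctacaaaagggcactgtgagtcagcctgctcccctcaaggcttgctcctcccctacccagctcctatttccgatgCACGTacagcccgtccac
Car14: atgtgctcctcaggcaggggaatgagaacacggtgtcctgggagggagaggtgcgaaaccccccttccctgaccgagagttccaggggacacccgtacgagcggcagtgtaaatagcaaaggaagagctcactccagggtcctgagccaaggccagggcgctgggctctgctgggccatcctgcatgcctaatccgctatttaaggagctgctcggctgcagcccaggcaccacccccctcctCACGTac

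Car14, a transmembrane enzyme found in the retina on Müller glia and pigment epithelium, was above background on all 6 arrays with a detection p of 0. Its signals were 263, 325.1 and 363.8 in homozygous lenses and 512.6, 509.5 and 409.8 in wild-type lenses. As deposited, all homozygous signals were lower, but so they were for 51.9% of tested probes. After normalization Car14 stood at 7.92, 8.21 and 8.48 in homozygotes and 8.62, 8.46 and 8.23 in the wild type, so the groups overlapped. The log2 fold change was -0.23 (SE 0.17, 95% interval -0.59 to 0.13, limma adjusted p = 0.706). It passed in 1 of 24 other settings, median scaling, at -0.68 (limma adjusted p = 0.0492). That setting moved the median of all tested probes to -0.31 and called 826 probes, 9 higher and 817 lower.

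The cell type markers that bear on Car14 moved unevenly. Of 12 Müller glia and astrocyte markers 7 were tested, and 3 were lower and 1 higher in every homozygote than in every wild-type lens, against 7.47% and 7.31% of tested probes. The glial glutamate transporter Slc1a3 fell (log2 fold change -1.98, limma adjusted p = 0.00244). It was above background on 1 homozygous and 3 wild-type arrays, so the size of its fold change rests on values near background. The list's summed signal was 11460 to 12740 in homozygous and 10600 to 11930 in wild-type lenses. That sum rests mainly on the bright Clu, Dkk3 and Vim, so it says little about the dim markers. Mean log2 values of Clu were 12.80 in homozygotes and 12.63 in the wild type, and those of Slc1a3 were 4.77 and 6.75. Pigment cell markers, 8 of 14 tested, summed to 276.1 to 437.9 in homozygotes. The wild-type sums were 493.8, 1847 and 467.6 on replicates 1, 2 and 3, so the highest was that of replicate 2 alone. Of the 8, 4 were lower in every homozygote than in every wild-type lens, and 2 had a log2 fold change above 0. In this list 0 passed, and 2 were above background on 0 homozygous arrays, a pattern whose share over all probes was not computed. The part of these cells in the Car14 signal was not tested.

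Car2, the abundant and fast cytosolic carbonic anhydrase, also a Müller glia enzyme in the retina, was detected by 1 of its 2 probes. ILMN_2606746 had signals of 110, 101.1 and 99.91 in homozygous lenses, with detection p-values of 0.00376 to 0.00752, and of 111.9, 113.3 and 102.5 in wild-type lenses, with detection p-values of 0.00251 to 0.0113. The normalized groups overlapped, at 5.36 ± 0.10 in homozygotes and 5.15 ± 0.20 in the wild type (SD, n = 3 each). The log2 fold change was 0.20 (SE 0.18, 95% interval -0.18 to 0.59, limma adjusted p = 0.758), and it was -0.04 with median scaling. ILMN_2603504 was above background on 0 of 6 arrays, with signals of 70.85 to 85.44 in homozygotes and 68.76 to 75.24 in the wild type and detection p-values of 0.594 to 0.987. The 2 Car2 probes thus disagreed on whether the transcript was detected at all.

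Car4, the lipid-anchored enzyme, known in the eye from the capillaries beneath the retina, lay at the detection limit. Its signals were 100.1, 88.07 and 85.08 in homozygous lenses, with detection p-values of 0.0376, 0.129 and 0.178, and 100, 108.6 and 98.12 in wild-type lenses, with detection p-values of 0.0213, 0.00376 and 0.0401. It was above background on 1 homozygous and 3 wild-type arrays. The normalized values overlapped (4.73 ± 0.18 in homozygotes and 4.91 ± 0.13 in the wild type, SD, n = 3 each), and the log2 fold change was -0.17 (SE 0.16, 95% interval -0.53 to 0.18, limma adjusted p = 0.781). Of 10 endothelial markers 2 were tested, Egfl7 and Kdr, and 0 passed, with summed signals of 175.1 to 189.6 in homozygotes and 150.8 to 166.7 in the wild type. The part of vessel cells in the Car4 signal was not tested.

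Car3, Car12 and Car13 were above background on 0 of 6 arrays, so no fold is given. The signal of Car3, a cytosolic enzyme of muscle and fat, was 77.84 to 91.17 in homozygous and 87.68 to 90.7 in wild-type lenses (detection p-values of 0.257 to 0.62). That of Car12, a transmembrane enzyme, was 78.49 to 84.26 and 76.19 to 86.22 in homozygous and wild-type lenses (detection p-values of 0.432 to 0.912). That of cytosolic Car13 was 75.83 to 80.62 in homozygotes and 83.68 to 88.97 in the wild type (detection p-values of 0.333 to 0.929). For Car13 the homozygous signals as deposited were all lower, but the normalized values overlapped. Such separation downward as deposited was seen in 51.9% of tested probes, and its share over all probes was not computed. For skeletal and smooth muscle, 3 of 12 markers were tested and 0 passed.

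Other members of the family gave no call. Of 8 further carbonic anhydrase genes 5 had a probe, and Car11 and Car5b were tested. Car11, a relative that lacks catalytic activity, was above background on all 6 arrays. Its signals were 155.8, 158.7 and 144.7 in homozygotes and 197, 178.3 and 166.6 in the wild type. They were lower as deposited, as for 51.9% of tested probes, but overlapped once normalized (log2 fold change 0.10, 95% interval -0.29 to 0.49, limma adjusted p = 0.897). The mitochondrial enzyme Car5b had log2 fold changes of -0.12 and 0.18 on its 2 tested probes (limma adjusted p = 0.881 and 0.77). Car6, Car7 and Car15 were above background on 0 of 6 arrays.

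The transporters and regulators that work with carbonic anhydrases were taken from 3 lists, with 1 probe per gene, and 28 of 6430 named genes tested (0.435%) passed. Of 18 bicarbonate transporters 3 were tested and 0 passed (median log2 fold change -0.04, and 0 over all named genes). Slc26a4, the anion exchanger pendrin, stood at 4.94, 4.67 and 4.81 in homozygotes and 5.49, 5.23 and 6.34 in the wild type (log2 fold change -0.88, limma adjusted p = 0.281). For the anion exchanger Slc4a2 the log2 fold change was -0.04 (limma adjusted p = 0.964). Of 26 genes of proton and lactate export 13 were tested and 0 passed (median -0.03). The scaffold Slc9a3r1 was above background on 3 wild-type and 0 homozygous arrays (limma adjusted p = 0.296), a pattern whose share over all probes was not computed. For the proton pump subunit Atp6v0a1 the log2 fold change was -0.41 (limma adjusted p = 0.586).

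Of 33 genes of hypoxia-inducible factor and its targets, 19 were tested, 1 passed and 16 (84.2%) had a log2 fold change above 0, against 50% of all named genes. Across the cell type lists this share ran from 0% to 100%, with 81.8% for lens fibre and 83.3% for lens epithelium markers. With median scaling 3 of the 19 were above 0, and 767 of the 6430 named genes. The list's median was 0.10, and with median scaling it was -0.28, where that of all named genes was -0.32. Hif1a, the oxygen-regulated subunit, had signals of 124.9, 131.2 and 128.5 in homozygous lenses and 105.6, 94.79 and 113.4 in wild-type lenses. It rose (log2 fold change 1.13, SE 0.21, limma adjusted p = 0.0432), a call kept in 10 of 23 other settings (limma adjusted p up to 0.265) and lost when wild type replicate 2 (0.0533, but 0.0495 with the tested probes held fixed), wild type replicate 3 (0.0698) or any homozygous array was left out. With an array left out its log2 fold change was 0.91 to 1.26. The arrays measure RNA, and neither the protein nor the activity of the factor was measured. The other genes of the list did not pass, with log2 fold changes between -0.17 for the kinase Pdk1 and 0.42 for Pfkfb4, an enzyme that sets the pace of glycolysis.

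**Figure D3:**
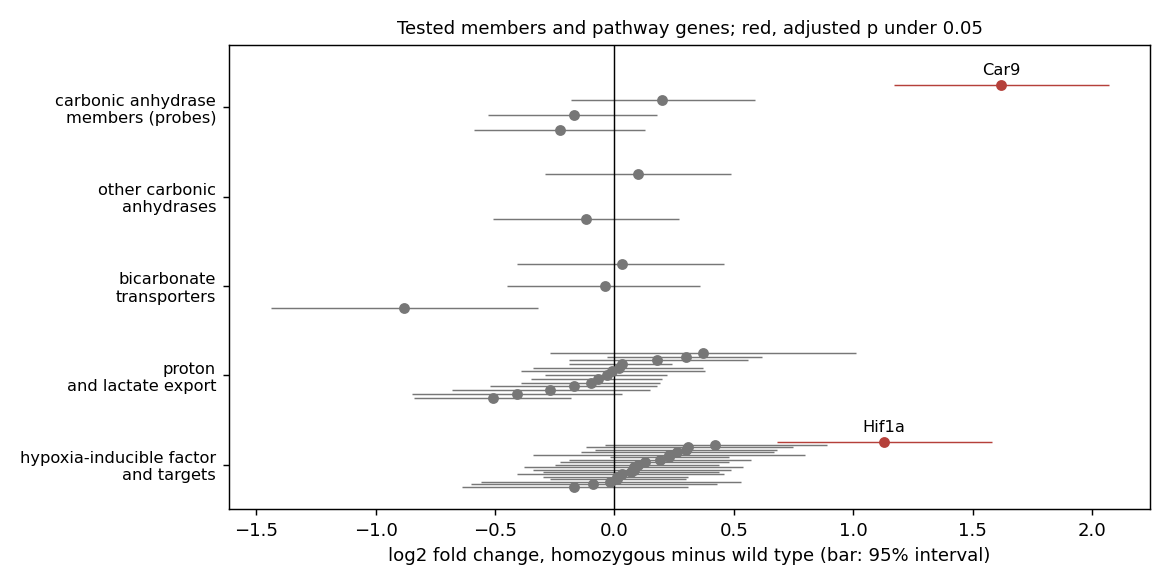
Log2 fold change, homozygous minus wild type, with 95% intervals for the 4 tested carbonic anhydrase probes and, below them, the tested genes of the other carbonic anhydrases, bicarbonate transporters, proton and lactate export, and hypoxia-inducible factor with its targets. Car9 at 1.62 and Hif1a at 1.13 are the points that passed (red), and the other points are grey.

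Over the 6 arrays the named genes whose normalized values were most like those of the Car9 probe were Cenpa and Glrx2 (Pearson r = 0.991 each), Prex2 (0.976), and Aqp1 and Mme (0.975 each). These are descriptions over 6 arrays in 2 groups, in which any gene that differs between the groups scores high. Of the 5, the water channel Aqp1 passed the test (log2 fold change 1.30, limma adjusted p = 0.00343), and the other 4 had log2 fold changes of 0.31 to 0.56 and did not pass. Aqp1 and Car9 shared their order within the homozygotes only in part: Aqp1 stood at 11.20, 10.76 and 11.03, and was highest in replicate 1, while Car9 was highest in replicate 3.

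Summed marker signals did not overlap between the groups in 5 of 11 cell type lists. Of single tested probes 14.8% did not overlap in either direction, and no such share was computed for sums. A sum follows the brightest markers of its list. Lens epithelium markers, 6 of 10 tested with Aqp1 passing, summed to 11320 to 12950 in homozygotes and 9958 to 12340 in the wild type, overlapping. Summed normalized signals lay wholly higher in homozygotes for lens fibre and endothelial markers, as given above. As deposited, the mean signal of each tested fibre marker but Dnase2b was lower in homozygotes (for Mip, 28730 and 31030 in the wild type). Of the endothelial markers, Kdr had a log2 fold change of -0.05 and Egfl7 of 0.25. Egfl7 was lower in homozygotes as deposited (mean signals of 192.2 and 215.1). Summed normalized signals lay wholly lower for inner retina neurons (243.1 to 284.1 in homozygotes and 511.5 to 819 in the wild type, 9 of 16 markers tested), for pigment cells, as given above, and for macrophages and leukocytes (134.6 to 160.5 in homozygotes and 195.4 to 285.2 in the wild type, 5 of 12 tested). The inner retina calls were Calb2, Slc6a9, Sncg and Slc17a6 and the leukocyte call was Laptm5, where 0.435% of all named genes passed. Calb2 and Sncg were above background on 1 homozygous array each. Once normalized, 4 leukocyte markers were lower and 1, Aif1, higher in every homozygote than in every wild-type lens. For inner retina markers these counts were 6 and 0, and Rbpms alone had a log2 fold change above 0 (0.30). The shares of tested probes were 7.47% lower and 7.31% higher. Slc17a6 and Laptm5, like Pvalb, C1qb and Fcer1g, which did not pass, were above background on 0 homozygous and 3 wild-type arrays and so entered the test only through the wild type. The share of all probes with this pattern was not computed, and fewer probes were above background on the homozygous arrays. Markers of ciliary and iris epithelium, 3 of 10 tested and 0 passing, gave 278.8 to 380.7 in homozygotes and 361.5 to 516.8 in the wild type. The erythrocyte markers came down to Hba-a1, at 21.7 to 137.2 and 122.2 to 327.5. The part of these cell types in the Car9 result was not tested.

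**Figure D4:**
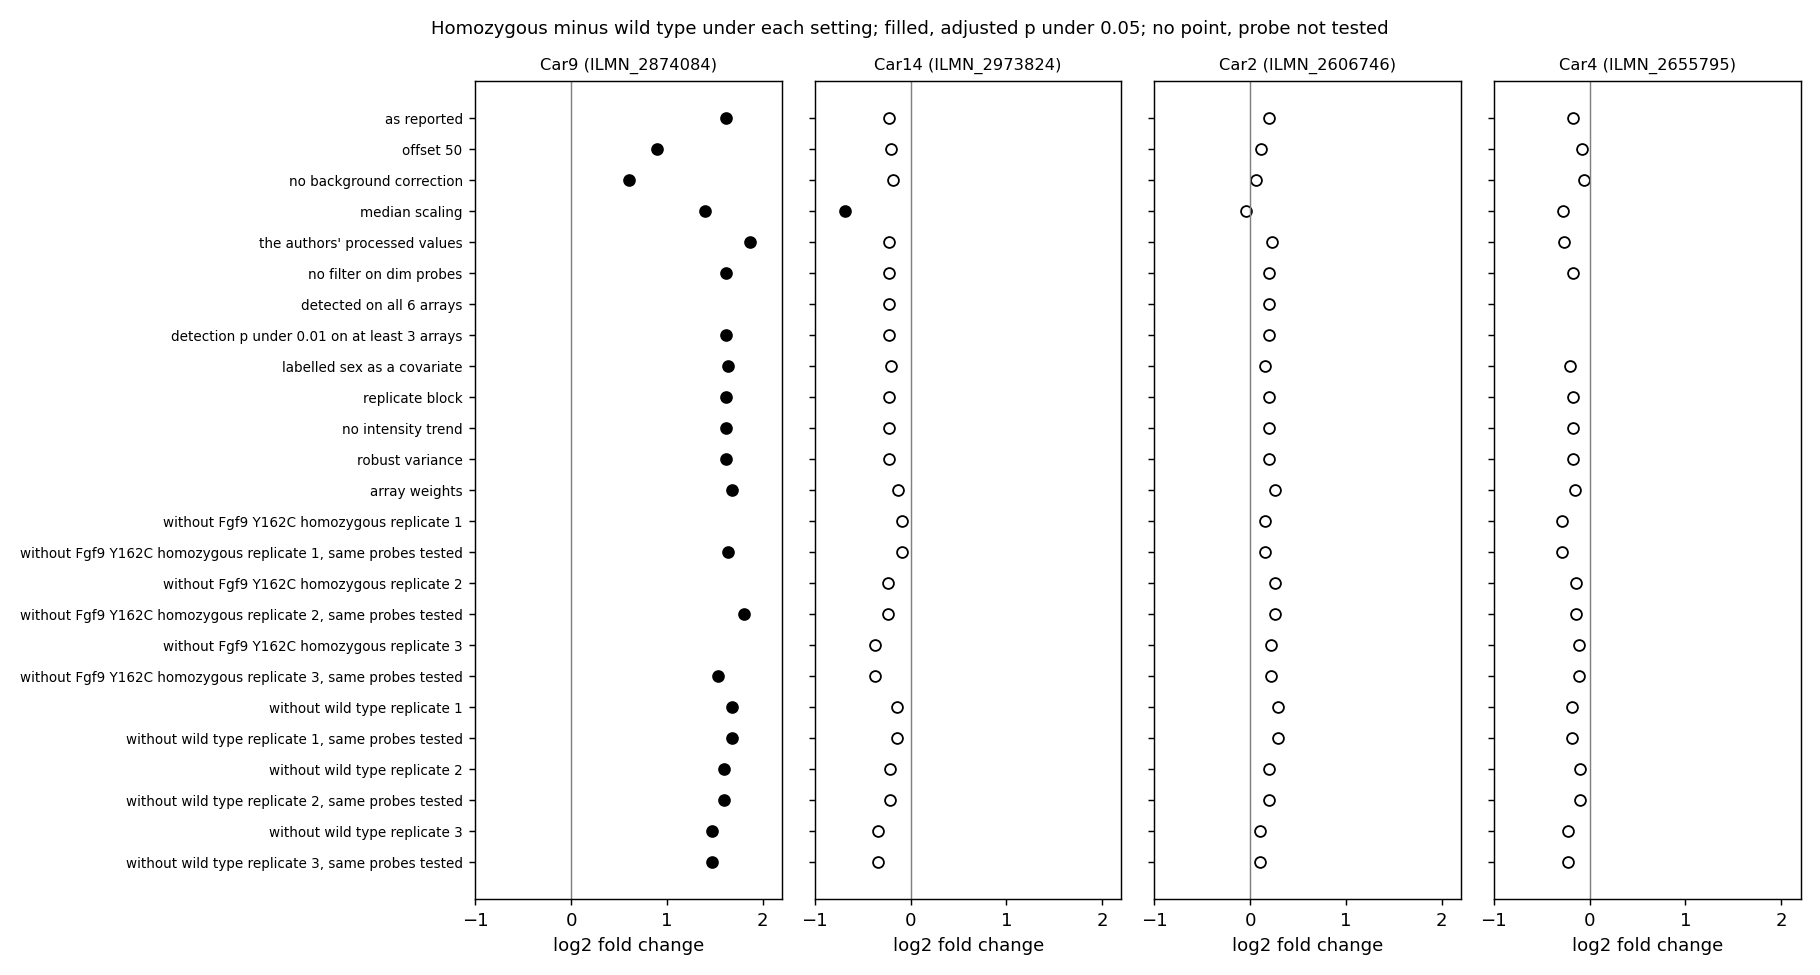
Log2 fold change, homozygous minus wild type, of the 4 tested carbonic anhydrase probes under each processing setting (rows). Filled points passed at an adjusted p under 0.05, and a missing point means that the probe was not tested. Car9 lies between 0.60 and 1.87 and is filled wherever tested, Car14 is filled only with median scaling, and Car2 and Car4 are open throughout.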

How the data were processed

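RNA from the lens of 6 mice was hybridised to Illumina BeadChips, 1 mouse per array. The deposited table gives a linear signal intensity per probe, neither background-subtracted nor normalized in its values, and, per the file headers, a detection p-value per array. A second deposited table holds the authors' processed intensity, background-subtracted and normalized by a method not given in the sources used here. The submitters' processing notes name GenomeStudio 2011.1.

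Signals were corrected with limma 3.58.1 (R 4.3.3) by the normal-exponential method, with negative-control levels estimated through the detection p-values, raised by an offset of 16, then quantile normalized and log2 transformed. Quantile normalization hides a shift shared by most transcripts, and the offset shrinks the fold changes of dim probes. Gene symbols came from the platform annotation (23978 of 25697 probes have 1), with 23962 matched by gene identifier to RefSeq. The 8618 probes above background on at least 3 arrays were tested with lmFit and eBayes with an intensity trend, two-sided, with Benjamini-Hochberg adjustment over all of them. The fit was tested on simulated data. Marker sums add normalized linear signals over the tested markers, 1 probe per gene, that with the highest mean. The number of arrays limits precision.

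The members and lists were chosen with earlier results of these data known. Named genes were all member probes, in each list up to 4 genes that passed or else the 2 of smallest p, and the 5 genes most correlated with the Car9 probe. Other genes were named after their values were seen. The labels name no pairing of mice by replicate number, and the main fit used none.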

Additional observations from a re-analysis of the deposited data

How the results depend on the processing

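Car9 kept its direction and its call in all 20 other settings that tested its probe ILMN_2874084, at log2 fold changes of 0.60 to 1.87. Of these, 6 held the tested probes fixed, a setting chosen after the data were seen. All settings reuse the arrays on which Car9 was partly chosen, so they describe the dependence on processing and are not independent evidence. The filter on all 6 arrays, and leaving out any homozygous array without fixing the probes, left the Car9 probe untested and are not counted. The count of changed carbonic anhydrase probes, 1, became 2 with median scaling, where Car14 passed, and 0 where only probes above background on all 6 arrays were tested, a filter that removes the Car9 probe by construction. It was 0 to 1 with an array left out and 1 each time with the tested probes held fixed. Car2 turned to -0.04 with median scaling. Car14 and Car4 kept their sign in every setting that tested them.

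The count of changed probes over the array, 35, moved more. It was 23 with an offset of 50, 22 with no background correction, 826 with median scaling, 11 with the filter on all 6 arrays, 22 with labelled sex as a covariate, 20 with no intensity trend, and 69 with array weights. With an array left out it was 12 to 98 (12 to 15 with a homozygous array omitted, 98 on omitting wild type replicate 1 and 17 on omitting wild type replicate 3), and with the tested probes held fixed 16, 13 and 15 without homozygous replicates 1, 2 and 3 and 110, 55 and 18 without wild type replicates 1, 2 and 3. The causes were not tested. With replicate number as a block it was 125, and the Car9 probe passed (limma adjusted p = 0.000147). By the labels, same-numbered mice share only a number. Deviations of same-numbered arrays correlated at 0.20, 0.19 and -0.03, and 4 of 6 arrays correlated best with their own number. These values do not settle whether the mice were paired. The slide as a block was not run, as the files used here name no slide. Car3, Car12, Car13 and 1 of the 2 Car2 probes were at background, where a difference was not detectable.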
